A study of Mus musculus with 8 samples.

Results

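The regions described here were 1 kb windows of the mouse genome that are dense in CpG dinucleotides and whose mean methylation was neither low nor high. They were chosen by their methylation level and CpG count, as windows starting at multiples of 1000 with 80 or more listed cytosine positions and a mean of 30% to 70% over all positions and all 8 libraries. Of 16481 CpG-dense windows, 1834 met that rule, 13430 lay under 30% and 1217 over 70%. The 1834 windows held 182593 positions, with a median of 94 and a highest count of 312 positions per window. The choice used the level itself, so the levels are a description. The NASH against ND contrast was not used.

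DNA methylation was measured by whole-genome bisulfite sequencing, which reads unmethylated cytosines as thymine, in liver of wild-type male C57BL/6J mice, an inbred strain. Per the series text the mice were bought at 8 weeks of age and then fed for 28 weeks. The 4 libraries titled NASH (nonalcoholic steatohepatitis) belong to the diet rich in fat, cholesterol and fructose, and the 4 titled WT to the normal diet (ND). In the labels the treatment entry contradicts the title of every sample, since samples titled WT carry NASH there and those titled NASH carry WT. The titles, like the column names, were followed, and if the treatment entry were right, each direction below would turn round. The labels do not say that the libraries come from separate mice, so p-values measure the spread between these libraries, which may be technical. Values are in percent per cytosine without read counts, and their depth is unknown. Values after ± are SDs over 4 libraries and a difference is the NASH mean less the ND mean, in percentage points. Per library 12.3% to 13.1% of all values were exactly 0. Between 2.01% and 2.40% were doubtful zeros, meaning a 0 whose 10 nearest positions in the same library had a median of 50% or more. Such a 0 can stand for a position without reads. Where every value of 0 is left out below, true unmethylated values are left out too, and levels rise.

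CpG-dense regions, or CpG islands, mostly lie at promoters and are usually free of methylation, while the rest of the genome is mostly methylated. An intermediate mean can arise in several ways. At imprinted genes the DNA of a single parental allele is methylated at a differentially methylated region. At many of these regions the mark is set in the germ line and kept in somatic tissues. It is linked to expression from a single allele. Other ways are a mixture of cells, a boundary between methylated and unmethylated DNA within the window, or values that are 0 at some positions and 100 at others.

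The promoters shown here overlap windows of imprinted genes that met the rule. They are shown because the imprinted list had, in the median window, 96.1% of positions between 20% and 80%, the highest median of the 9 gene lists. Windows of other genes had such shares too, among them 99.4% at Rn18s-rs5, 96.3% at Meis2 and 96.1% at Sox9, and a window of Mcts2 had 67.9%. They run from 250 bases before to 50 bases after the annotated start and come from RefSeq (GRCm38.p6), printed 5′ to 3′ with every CpG in capitals. Plagl1, a growth-regulating zinc finger gene, is at chr10:13090582-13090881 on the plus strand. Mcts2, a retrogene in an intron of H13, is at chr2:152686898-152687197 on the plus strand. Zrsr1, a splicing factor retrogene in an intron of Commd1, is at chr11:22971755-22972054 on the plus strand, mostly just outside its window of the set. Igf2r, the receptor that clears insulin-like growth factor 2, is at chr17:12769657-12769956 on the minus strand. Gnas, which encodes the alpha subunit of the stimulatory G protein and uses several start sites, has an upstream promoter at chr2:174284070-174284369 and a downstream one at chr2:174327499-174327798, both on the plus strand.
Plagl1 promoter: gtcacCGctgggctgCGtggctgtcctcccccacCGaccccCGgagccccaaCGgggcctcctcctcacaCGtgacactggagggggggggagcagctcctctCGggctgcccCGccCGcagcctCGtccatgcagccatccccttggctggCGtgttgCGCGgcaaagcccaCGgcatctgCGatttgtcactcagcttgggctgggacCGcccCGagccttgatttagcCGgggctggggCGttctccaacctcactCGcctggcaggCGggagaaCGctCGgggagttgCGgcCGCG
Mcts2 promoter: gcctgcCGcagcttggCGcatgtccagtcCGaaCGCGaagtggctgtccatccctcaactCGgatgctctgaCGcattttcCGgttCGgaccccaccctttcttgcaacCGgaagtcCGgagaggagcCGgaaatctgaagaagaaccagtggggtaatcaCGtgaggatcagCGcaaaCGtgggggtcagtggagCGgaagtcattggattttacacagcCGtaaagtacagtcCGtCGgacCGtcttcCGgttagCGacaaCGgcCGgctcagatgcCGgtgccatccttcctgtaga
Zrsr1 promoter: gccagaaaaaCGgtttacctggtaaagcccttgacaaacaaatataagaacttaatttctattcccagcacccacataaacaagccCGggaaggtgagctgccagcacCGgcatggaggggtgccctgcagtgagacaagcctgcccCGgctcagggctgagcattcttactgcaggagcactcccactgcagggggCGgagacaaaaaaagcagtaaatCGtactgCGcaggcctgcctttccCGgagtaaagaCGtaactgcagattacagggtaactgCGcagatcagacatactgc
Igf2r promoter: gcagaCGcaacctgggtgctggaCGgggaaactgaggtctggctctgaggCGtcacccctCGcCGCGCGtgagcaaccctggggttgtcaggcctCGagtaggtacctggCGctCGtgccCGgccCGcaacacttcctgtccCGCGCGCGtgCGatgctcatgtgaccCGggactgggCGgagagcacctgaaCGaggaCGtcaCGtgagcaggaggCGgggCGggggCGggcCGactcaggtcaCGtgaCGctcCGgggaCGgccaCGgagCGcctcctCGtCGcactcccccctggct
Gnas upstream promoter: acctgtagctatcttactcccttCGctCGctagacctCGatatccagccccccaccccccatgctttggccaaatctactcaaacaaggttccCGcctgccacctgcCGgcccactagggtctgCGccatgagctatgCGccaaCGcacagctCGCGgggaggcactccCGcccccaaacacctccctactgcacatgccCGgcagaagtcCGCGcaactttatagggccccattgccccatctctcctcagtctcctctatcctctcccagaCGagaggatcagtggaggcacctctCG
Gnas downstream promoter: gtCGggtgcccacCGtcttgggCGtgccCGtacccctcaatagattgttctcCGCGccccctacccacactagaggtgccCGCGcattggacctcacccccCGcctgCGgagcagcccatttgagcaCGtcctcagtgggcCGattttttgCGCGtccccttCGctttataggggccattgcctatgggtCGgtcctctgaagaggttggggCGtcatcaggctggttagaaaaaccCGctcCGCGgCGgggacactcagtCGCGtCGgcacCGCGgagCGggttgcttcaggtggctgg
The Zrsr1 promoter holds 10 CpGs, the upstream Gnas promoter 16 and the Igf2r promoter 34.

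At the Plagl1 promoter the mean over libraries of single positions ran between 25% and 77.1%, and at Mcts2 between 42.5% and 70.8%. At Zrsr1 it ran between 29.4% and 60.2%, and at Igf2r between 22.9% and 71.0%. No position of these promoters was thus near 0 or 100 in the mean over libraries. Single values at exactly 0 or 100 made up 68.1% at Igf2r and 56.25% at Plagl1, against 9.5% at Mcts2 and 10.7% at Zrsr1. At Igf2r and Plagl1 the intermediate means were thus largely averages of such values. The Mcts2 promoter averaged 56.5% ± 15.3 in NASH and 59.1% ± 8.24 in ND libraries (SD, n = 4 each). The Zrsr1 promoter averaged 53.8% ± 6.19 in NASH and 50.2% ± 8.57 in ND, and the Igf2r promoter 56.6% ± 21.7 in NASH and 46.1% ± 14.1 in ND. The spread between libraries was wider than the difference at each of these promoters.

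The hexamer TGCCGC, the methylated motif bound by ZFP57, a zinc finger protein that keeps imprints, was searched on both strands, with GCGGCA as its reverse complement. It was found in 4 of the 12 promoters overlapping windows of the imprinted list (33.3%), which are Mcts2, Nnat, Plagl1 and Hymai. The Plagl1 and Hymai promoters overlap, as do a pair of the Gnas promoters, so the 12 are not all separate sequences. The 12 need only overlap a window, while those compared by window class below are centred in theirs. Of all 22669 promoters 2664 held it (11.8%), as did 12 of the 68 promoters centred in windows of the intermediate set (17.6%) and 24.3% of those in CpG-dense windows under 30%. The motif contains a CpG and promoters in the low windows had a median of 25 CpGs, against 7 over all promoters.

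Windows of the intermediate set were built in different ways, which their mean does not show. In the median window 56.3% of positions had a mean between 20% and 80%, against 1.56% in CpG-dense windows under 30% and 23.3% in those over 70%. In the median window 89.7% of single values were exactly 0 or 100, against 92.6% in CpG-dense windows under 30%, 82.0% in those over 70% and 44.0% in the 15936 intermediate windows with 40 to 79 positions. Doubtful zeros made up a median of 14.3% of values in the set. Their share was 0% in CpG-dense windows under 30%, 6.06% in those over 70% and 4.31% in the intermediate windows with 40 to 79 positions. Single values were thus mostly all or nothing in all CpG-dense classes. A doubtful zero needs methylated neighbours, which are scarce in windows under 30%, and a level over 70% limits the share of zeros. The contrast of doubtful zeros with these level classes therefore follows largely from the level rule, and nothing is concluded from it. The intermediate windows with 40 to 79 positions lie within the same level limits as the set. Against them the median share of doubtful zeros was higher in the set. The strands of a CpG differed by a median of 17.0 percentage points in the set and by 8.33 points in CpG-dense windows over 70%. The left and right 500 bases differed by a median of 24.7 points, where the less dense intermediate windows had 27.1 points. Without the doubtful zeros the median level of the set was 58.6%, and 484 windows lay above 70% (320 at 70% to 80%, 146 at 80% to 90% and 18 above that).

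The share of values at 0 or 100 splits the set. Under 40% of values were at 0 or 100 in 168 windows (9.16%), and 90% or more in 903 windows (49.2%). These dividing points were chosen after the values were seen. In the 168 windows a median of 85.9% of positions were between 20% and 80%, and the strands differed by 8.64 points. In the 903 windows the median share of such positions was 50.9% and the strands differed by 25 points. Of the 168 windows 9.52% lay outside any annotated gene, against 63.2% of the 903. In the whole set 917 windows lay outside any gene and 115 (6.27%) within 500 bases of an end of a protein-coding gene, where 65.4% of the CpG-dense windows under 30% lay. Of the 1217 CpG-dense windows over 70%, 438 lay outside any gene and 87 (7.15%) within 500 bases of such an end. The low share near gene ends was thus not particular to the set.

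**Figure D1:**
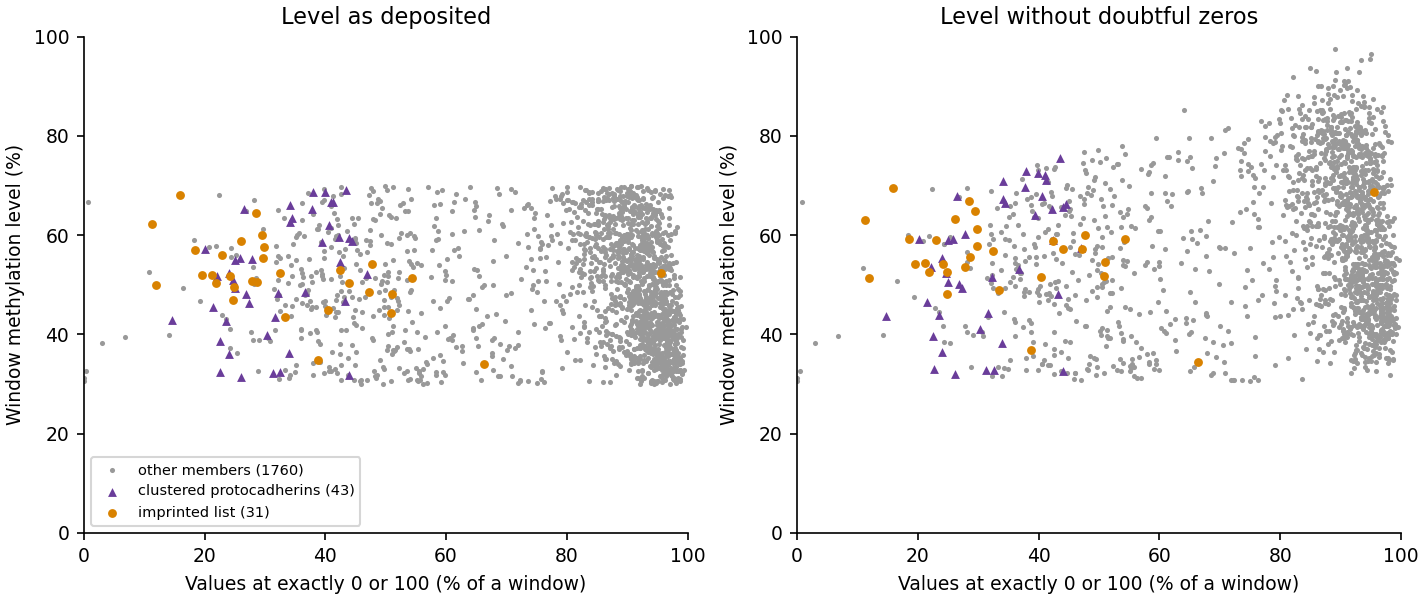
Each point is a 1 kb window of the set, with its share of values at exactly 0 or 100 (percent) on the x axis and its methylation level (percent, mean of 8 libraries) on the y axis, as deposited on the left and without doubtful zeros on the right. Windows of imprinted genes and clustered protocadherins lie mostly at shares under 60%, while most other windows lie at shares over 80%, where leaving out doubtful zeros moves many windows above 70%.

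The rule's limits fell in a continuous run of levels. Just inside the lower limit were windows at 30.03%, 30.04% and 30.05%, and just outside it windows at 29.984%, 29.996% and 29.999%. At the upper limit, windows at 69.85% (in Apc2), 69.86% and 69.86% were inside and windows at 70.0003%, 70.05% and 70.06% outside. No gap in level separated the set from its neighbours. The set held 472 windows at 30% to 40%, 482 at 40% to 50%, 486 at 50% to 60% and 394 at 60% to 70%. Per chromosome it held between 48 windows (chromosome 19) and 181 (chromosome 4).

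The set as a whole was at the same level in both diets within the spread of the libraries. The mean over its windows was 50.3%, 47.9%, 49.2% and 49.7% in the NASH libraries, against 50.5%, 50.3%, 48.9% and 48.4% in the ND libraries. The groups overlapped, with means of 49.3% ± 1.0 in NASH and 49.5% ± 1.04 in ND (SD, n = 4 each). Doubtful zeros made up 14.1% to 14.6% of the set's values in NASH and 13.9% to 14.6% in ND libraries.

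No window of the set passed the test between NASH and ND. All 1834 windows were tested, and 0 had a Benjamini-Hochberg adjusted p under 0.05 in limma over 1609820 windows, of which 6 (0.000373%) passed. At an unadjusted p under 0.05 there were 228 windows of the set (12.4%), against 10.9% of all windows. Of these, 108 were higher in NASH (5.89%, against 4.33% of all windows) and 120 lower (6.54%, against 6.58%). The groups of libraries were fully apart at 88 windows (4.80%), against 6.49% of all windows, with NASH above ND at 50 (2.73%, against 2.78%) and below at 38 (2.07%, against 3.71%). The share of windows fully apart was thus below that of all windows, mostly through fewer windows with NASH below ND, and this gap was not tested. It was not particular to the set. CpG-dense windows under 30% were fully apart at 4.83% and those over 70% at 3.45%, with NASH below ND at 2.65% and 1.97%. Intermediate windows with 40 to 79 positions were fully apart at 12.2%. NASH minus ND differences ran from -30.6 to 28.1 points with a median of 0.0035, and 917 windows lay on either side of 0. On simulated data this fit called 23 of 100 windows changed by 20 points and 74 of 100 changed by 40 points. The simulation drew 200000 windows from all tested windows, with normal noise and adjustment over those 200000. The rates are therefore not those of the set, and a count of 0 does not show that no window differed.

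The share of windows at an unadjusted p under 0.05 varied with the share of values at 0 or 100. It was 29.8% (50 of 168 windows) where under 40% of values were at 0 or 100, and 20.2% (50 of 247) at 40% to 60%. It was 8.42% (76 of 903) where 90% or more of values were at 0 or 100. The median standard error of the NASH minus ND difference was 4.30 points in the 168 windows and 6.38 points in the 903. Windows with 40 to 79 positions and an intermediate level had a share of 18.9%.

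Liver holds several cell types, and a change in their proportions and a change within a cell type cannot be told apart in these libraries. The marker genes given here are part of a longer list of markers, whose other genes are not reported here. A direction shared by those given need not hold for that list. The promoter regions of 4 hepatocyte genes averaged 36.5% to 38.3% in NASH and 17.7% to 31.1% in ND libraries, among them Alb at 36.5% and 31.1% and Apoa2 at 38.3% and 17.7%. The region of Ptprc, a leukocyte marker, was at 62.2% in NASH and 75.2% in ND, and that of Stab2, an endothelial marker, at 57.2% and 58.2%. The CpG-dense regions of Lcp1, Lrat and Kdr lay at 1.27% to 3.42% in both groups. The region of Des, a stellate cell marker, was at 18.2% in NASH and 19.5% in ND. The regions of the bile duct markers were at 40.01% in NASH and 34.46% in ND for Krt7, and at 20.8% and 19.5% for Epcam. The part of cell types in the results below was not tested.

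Of the 9 gene lists examined, that of imprinted genes had the windows with the most even intermediate levels. The list, chosen with earlier results of these data known, had 41 annotated genes, of which 19 had a window of the set within 1000 bases, 31 windows in all. Their median level was 51.8%, a median of 96.1% of positions were between 20% and 80%, and 29.5% of values were at 0 or 100. The left and right 500 bases differed by a median of 4.92 points, against 24.7 points in the whole set. None passed the adjusted threshold. At an unadjusted p under 0.05, 2 of the 31 were higher (against 4.33% of all windows) and 0 lower in NASH (against 6.58%), and the median difference was 2.73 points, against -0.633 points over all windows. The SD of a window over the 8 libraries of both diets had a median of 8.76 points, against 9.48 points in the whole set.

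**Figure D2:**
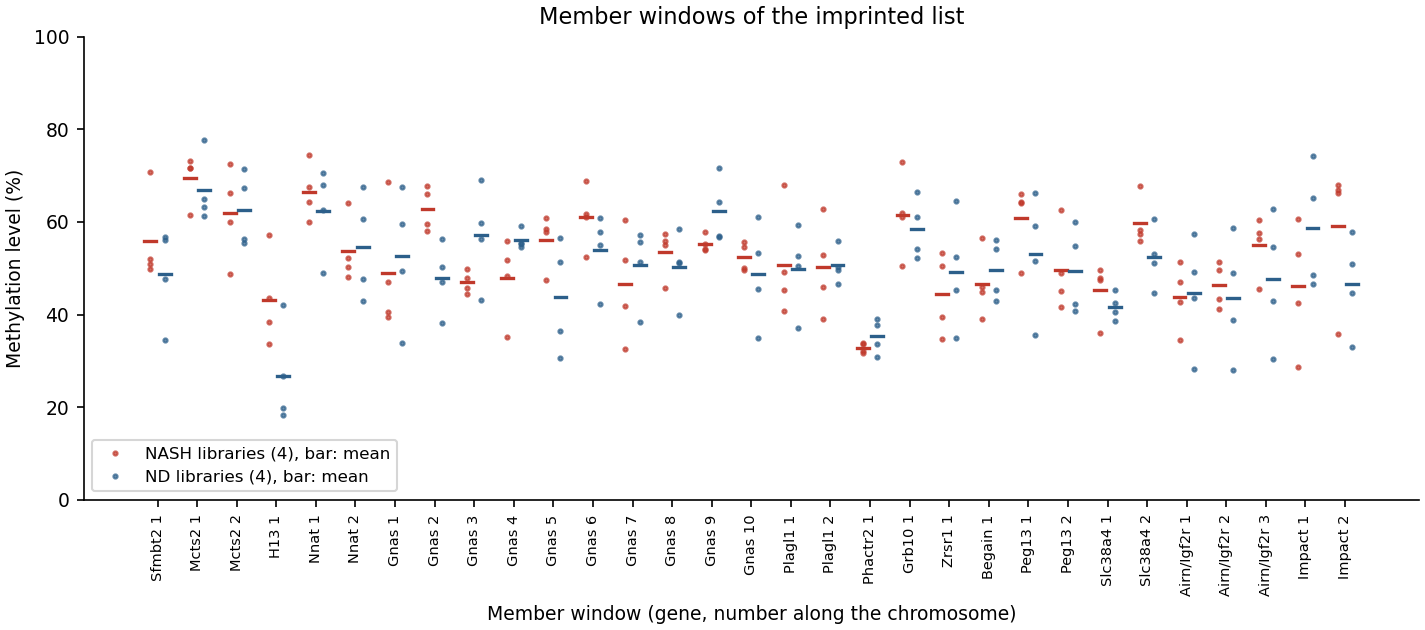
Methylation level (percent, y axis) of the 31 windows of the imprinted list (x axis, numbered along each chromosome). Points are the 4 NASH (left, red) and 4 ND (right, blue) libraries and bars are their means. Most windows lie between 40% and 65% in both groups, and the groups overlap in all windows but Gnas 2.

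Gnas held 10 windows in 4 blocks. The windows from chr2:174284000 to 174286999 hold the upstream promoter printed above. The window at 174285000 had 66.0%, 67.7%, 58.1% and 59.6% in the NASH libraries, against 47.1%, 38.2%, 56.3% and 50.3% in the ND libraries. All NASH libraries lay above all ND libraries, with a difference of 14.9 points (SE 4.32, limma adjusted p = 0.266). Its neighbour at 174286000 differed in the other direction, at 47.0% ± 2.38 in NASH and 57.1% ± 10.7 in ND, and the groups overlapped there. So the difference did not extend to the next 1000 bases.

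The next blocks, at 174295000 and from 174297000 to 174300999, held between 48.6% and 57.5%, and at 174297000 100% of positions were between 20% and 80%. The last block, from 174327000 to 174328999, averaged 55.3% ± 1.75 in NASH and 62.4% ± 7.07 in ND in its first window and 52.5% ± 3.11 in NASH and 48.7% ± 11.1 in ND in its second. The next windows were low, at 15.8% in NASH and 15.3% in ND at 174329000 and at 2.86% and 1.53% at 174330000. The intermediate level of this block thus ended within 2 kb in a CpG-dense unmethylated region.

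**Figure D3:**
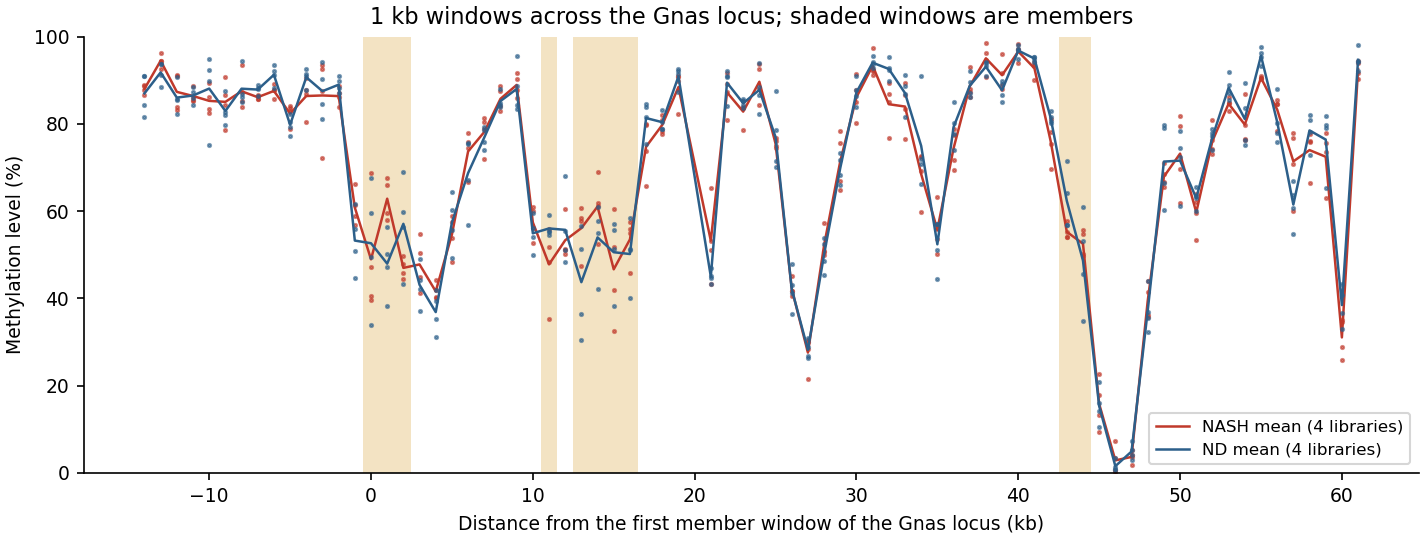
Methylation level (percent, y axis) of consecutive 1 kb windows with 6 or more positions across the Gnas locus against distance from its first window of the set (kb, x axis). Points are libraries, lines are means of the 4 NASH (red) and 4 ND (blue) libraries, and shaded windows belong to the set. The shaded windows have group means between 43.7% and 62.9%, the windows between the blocks have group means from 27.6% to 96.8%, and the last block is followed by 3 windows under 16%.

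Windows of the list also lay at the retrogenes Mcts2 and Zrsr1, elsewhere in H13 and at Nnat. At Mcts2 and its host H13, a signal peptide peptidase gene, chr2:152687000-152687999 had 60.03%, 72.5%, 48.9% and 66.3% in NASH, against 56.3%, 67.2%, 55.6% and 71.5% in ND libraries. The groups overlapped fully, with a difference of -0.71 points. The window at 152707000, within H13 and about 20 kb from Mcts2, had 33.5%, 43.6%, 57.2% and 38.3% in NASH, against 26.7%, 19.9%, 18.2% and 42.0% in ND. All NASH libraries lay above 3 of the ND libraries and the ranges overlapped through the fourth (16.4 points, SE 6.32, limma adjusted p = 0.392). With every value of 0 left out this difference at H13 was 9.14 points. Zrsr1 in Commd1, at chr11:22972000-22972999, averaged 44.5% ± 8.85 in NASH and 49.3% ± 12.4 in ND, with 100% of positions between 20% and 80%. Nnat, the neuronatin gene in an intron of Blcap, averaged 66.6% ± 6.10 in NASH and 62.4% ± 9.63 in ND at chr2:157560000-157560999.

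Windows of the imprinted growth regulators Plagl1, Grb10 and Igf2r had group means between 43.6% and 61.6%. Plagl1, with the noncoding Hymai, had 49.1%, 40.7%, 68.0% and 45.2% in NASH, against 52.6%, 59.3%, 37.0% and 50.5% in ND libraries at chr10:13090000-13090999. The groups overlapped and differed by 0.91 points. Grb10, an adaptor that restrains insulin receptor signalling, averaged 61.6% ± 9.12 in NASH and 58.4% ± 6.61 in ND at chr11:12025000-12025999. The Igf2r promoter window, chr17:12769000-12769999, had 57.6%, 45.6%, 56.2% and 60.4% in NASH, against 30.5%, 62.9%, 54.6% and 42.8% in ND. The start of Airn, the antisense noncoding RNA from an intron of Igf2r, lies in chr17:12741000-12741999, which averaged 43.9% ± 7.23 in NASH and 44.6% ± 12.3 in ND. At Igf2r, therefore, both the gene's own start and that of its antisense RNA were in the set, and the values of Igf2r and Airn overlapped between the diets.

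The other imprinted windows were at Peg13, a noncoding RNA in an intron of Trappc9, at Slc38a4, an amino acid transporter gene active in liver, at Begain and at Impact, a translation regulator. Slc38a4 averaged 59.8% ± 5.41 in NASH and 52.3% ± 6.55 in ND at chr15:97055000-97055999, where the groups overlapped. The windows of Impact differed in opposite directions: -12.5 points (SE 8.27) at chr18:12973000-12973999 and 12.6 points (SE 8.09) in the next window, neither beyond the spread. With every value of 0 left out the second was 1.203 points. A pair of windows of the list were built otherwise. Sfmbt2 at chr2:10554000-10554999 had 95.5% of values at 0 or 100, and at Phactr2, at chr10:13473000-13473999, the left and right 500 bases differed by 75.1 points.

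Clustered protocadherins had the most windows of the 9 gene lists. These genes on chromosome 18 encode cell-surface recognition proteins, and each variable exon has a CpG-rich promoter of its own, which neurons choose among. Of 58 annotated genes 40 had a window of the set within 1000 bases, in 43 windows, with a median level of 52.2% and 32.2% of values at 0 or 100. The spans of the Pcdhg genes overlap and a window was given to each gene in reach, so several of the 40 genes share windows. The copies also resemble each other, so reads may be shared between copies and the values are uncertain. None of the 43 passed the adjusted threshold. At an unadjusted p under 0.05, 16 were higher (against 4.33% of all windows) and 0 lower in NASH (against 6.58%). All NASH libraries lay above all ND libraries in 8 (against 2.78% of all windows) and below in 0 (against 3.71%). Of the 43 differences 33 were above 0, as were 668035 of 1609820 over all windows. The median difference was 3.75 points. The count of 16 was 9 without NASH replicate 1, 9 without NASH replicate 4, 10 without ND replicate 1 and 10 without ND replicate 4. With every value of 0 left out it was 7.

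The protocadherin windows with the smallest p lay at the end of the gamma cluster, at Pcdhga12. The window chr18:37768000-37768999 had 38.4%, 42.5%, 46.7% and 42.4% in NASH, against 21.7%, 22.1%, 25.9% and 19.6% in ND libraries. The groups were apart by 20.2 points (SE 2.16), with the smallest p of the set (limma adjusted p = 0.0694), which misses the threshold. With every value of 0 left out the difference was 12.1 points. Doubtful zeros were 0.994% of values in this window. The window chr18:37766000-37766999 had 47.3%, 40.9%, 33.9% and 41.9% in NASH, against 22.1%, 19.3%, 25.2% and 26.6% in ND, and the groups again did not overlap (17.7 points, SE 2.93, adjusted p = 0.111). Between them, chr18:37767000-37767999 averaged 57.2% ± 7.55 in NASH and 44.8% ± 7.94 in ND, with overlap. At the other end of the family, the 3 adjacent windows of Pcdha1 differed by 2.63 to 3.53 points, with overlapping groups.

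Between these ends, values in the gamma cluster lay on the same side, with NASH higher, at several genes. Pcdhga2 went the other way, at 45.2% ± 5.73 in NASH and 48.2% ± 3.07 in ND at chr18:37669000-37669999. At Pcdhga9, chr18:37737000-37737999, NASH libraries had 33.6%, 35.4%, 38.6% and 38.7%, against 26.1%, 29.4%, 29.4% and 28.3% in ND. The groups did not overlap (8.31 points, SE 1.74, adjusted p = 0.155). Pcdhgb6 averaged 47.6% ± 3.77 in NASH and 37.7% ± 5.17 in ND at chr18:37744000-37744999, and Pcdhac1 of the alpha cluster 35.8% ± 1.36 in NASH and 28.0% ± 2.80 in ND at chr18:37090000-37090999. In the beta cluster Pcdhb17 averaged 68.0% ± 2.53 in NASH and 58.9% ± 2.73 in ND, while Pcdhb12 averaged 64.2% ± 2.23 in NASH and 69.0% ± 5.46 in ND. Differences thus lay on both sides of 0 in each cluster, with -3.37 points at Pcdha7 of the alpha cluster.

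**Figure D4:**
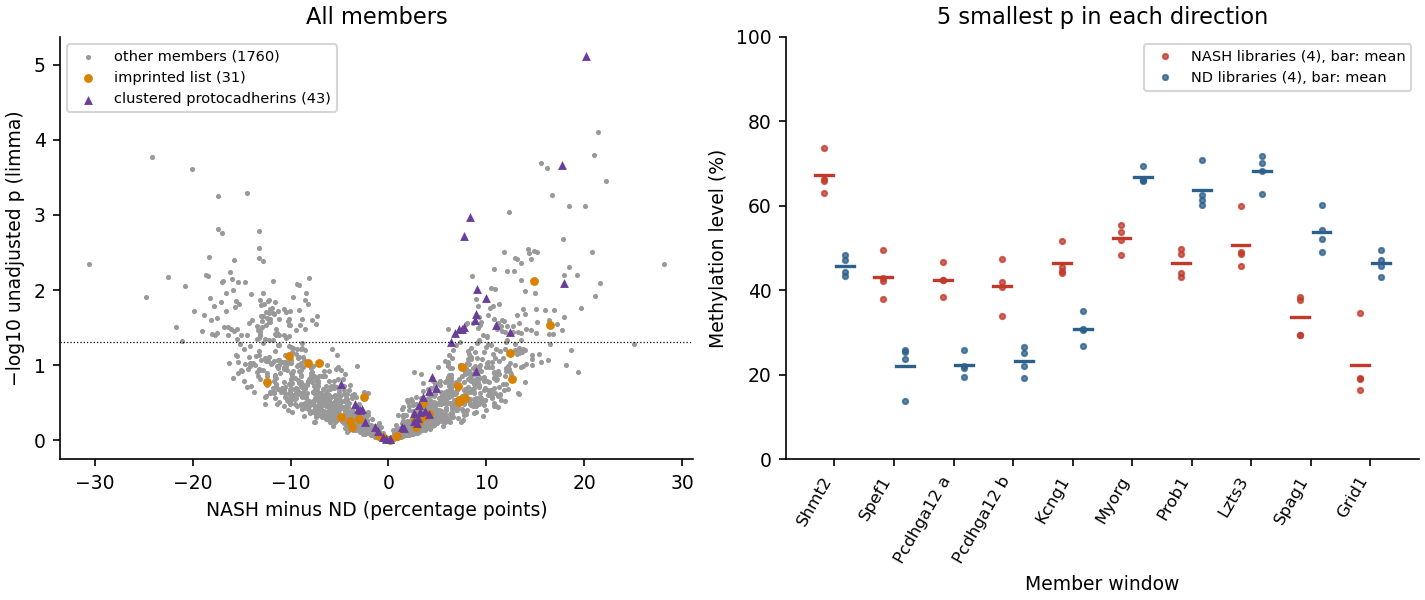
Left, NASH minus ND difference (percentage points, x axis) against −log10 of the unadjusted limma p (y axis) for all 1834 windows, with the dotted line at p of 0.05. Right, methylation level (percent) of the 5 windows with the smallest p in each direction, with the 4 NASH (left, red) and 4 ND (right, blue) libraries as points and their means as bars. Protocadherin windows above the line all lie on the side higher in NASH, and none of the windows passed the adjusted threshold.

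Apart from Pcdhga12, the windows with the smallest p lay within genes of varied function, and their choice by p makes their separation a description. Shmt2, the mitochondrial serine hydroxymethyltransferase of one-carbon metabolism, had 63.1%, 73.7%, 66.3% and 65.8% in NASH, against 48.4%, 44.4%, 47.1% and 43.4% in ND libraries at chr10:127520000-127520999. The groups were 21.4 points apart (SE 3.09, limma adjusted p = 0.0972), and the left and right 500 bases of the window differed by 44.8 points. Spef1, a sperm flagellar and cilium gene, averaged 43.1% ± 4.74 in NASH and 22.2% ± 5.71 in ND at chr2:131171000-131171999 (20.9 points, SE 3.32, adjusted p = 0.105). Kcng1, a potassium channel subunit gene, averaged 46.4% ± 3.51 in NASH and 30.9% ± 3.37 in ND at chr2:168268000-168268999 (15.5 points, SE 2.55, adjusted p = 0.110). At each of these genes all NASH libraries lay above all ND libraries. With every value of 0 left out the differences were smaller, at 6.997 points for Shmt2, 9.17 for Spef1 and 4.96 for Kcng1.

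The windows on the other side had NASH below ND in all libraries. Grid1, a glutamate receptor subunit gene, had 34.6%, 19.3%, 19.1% and 16.4% in NASH, against 49.7%, 45.9%, 43.1% and 47.3% in ND libraries at chr14:35533000-35533999 (-24.1 points, SE 3.85, limma adjusted p = 0.107), with 95.8% of values at 0 or 100. Spag1, which helps assemble ciliary motors, averaged 33.8% ± 5.04 in NASH and 53.9% ± 4.68 in ND at chr15:36210000-36210999 (-20.1 points, SE 3.38, adjusted p = 0.114). Myorg, a glycosidase gene, averaged 52.3% ± 3.04 in NASH and 66.8% ± 1.68 in ND at chr4:41497000-41497999 (-14.5 points, SE 2.71, adjusted p = 0.132). Prob1 averaged 46.4% ± 3.27 in NASH and 63.8% ± 4.82 in ND at chr18:35653000-35653999, and Lzts3, with the overlapping Gm52563, 50.8% ± 6.28 in NASH and 68.2% ± 3.97 in ND at chr2:130635000-130635999. These values had adjusted p-values of 0.134 and 0.170. With every value of 0 left out the difference was -3.05 points at Grid1 and -12.8 points at Spag1. Doubtful zeros were 8.06% of values in the Grid1 window and 6.78% in the Spag1 window.

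Developmental transcription factors, whose CpG islands are often bound by Polycomb, had 12 windows at 9 of 150 genes of a list built on symbol prefixes. At an unadjusted p under 0.05, 3 were higher (against 4.33% of all windows) and 2 lower in NASH (against 6.58%). Hoxb3, a homeobox gene, had 35.4%, 39.3%, 56.3% and 34.8% in NASH, against 12.02%, 19.6%, 37.9% and 11.8% in ND libraries at chr11:96333000-96333999. The groups overlapped through a single ND library (21.1 points, SE 6.67, limma adjusted p = 0.301), and the difference was 10.1 points with every value of 0 left out. A second window, chr11:96344000-96344999, averaged 42.0% ± 10.6 in NASH and 25.5% ± 9.72 in ND. Meis2, a homeobox cofactor of Hox proteins, averaged 44.9% ± 9.06 in NASH and 62.3% ± 11.3 in ND at chr2:116061000-116061999. The third window counted as higher belongs to Tbxa2r, the thromboxane receptor gene, which shares only its first letters with the T-box genes.

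The gene lists of liver cell types had few windows of the set, and the share over all genes was not computed. The hepatocyte list had 1 window of 35 genes, in Nr5a2, a nuclear receptor of bile acid and cholesterol metabolism. Nr5a2 had 36.5%, 32.0%, 47.1% and 39.4% in NASH, against 59.3%, 61.0%, 44.9% and 51.3% in ND libraries at chr1:136952000-136952999. A single library on each side made the groups overlap (-15.4 points, SE 4.50, limma adjusted p = 0.269).

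The list of stellate, endothelial and bile duct genes had 4 windows at 3 of 31 genes. The transcription factor Sox9, expressed in bile ducts, averaged 46.6% ± 6.50 in NASH and 55.3% ± 6.89 in ND at chr11:112784000-112784999, and 60.6% ± 7.84 in NASH and 71.2% ± 10.7 in ND in the next window. Krt7, a keratin of bile ducts, averaged 41.0% ± 4.59 in NASH and 35.2% ± 7.17 in ND. The leukocyte list had 1 window, in Runx1, a blood cell transcription factor gene, at 47.9% ± 14.5 in NASH and 36.1% ± 8.88 in ND. The groups overlapped in each of these windows, and none was at an unadjusted p under 0.05. In the first Sox9 window a single NASH library at 36.9% stood below the others, at 49.4% to 50.6%.

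Germline genes, often silenced by methylation in somatic tissues, had 5 windows at 4 of 30 genes and none at an unadjusted p under 0.05. Ddx4, a germ cell RNA helicase, averaged 69.5% ± 5.06 in NASH and 63.9% ± 10.6 in ND, and Smc1b, a cohesin subunit of meiosis, 47.6% ± 13.2 in NASH and 52.1% ± 11.9 in ND. Meioc, a regulator of meiosis, averaged 52.6% ± 4.52 in NASH and 49.4% ± 4.78 in ND at chr11:102665000-102665999. The zinc finger list, with many close copies and so uncertain values, had 10 windows at 5 of 254 genes and none at an unadjusted p under 0.05. Their median share of values at 0 or 100 was 79.03%. Among them Zfp978, at chr4:147275000-147275999, had 14.2% of values at 0 or 100 and averaged 41.2% ± 3.68 in NASH and 38.4% ± 1.92 in ND.

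The windows with the fewest values at 0 or 100 lay near ribosomal RNA sequence. At chr17:39847000-39847999, which holds Rn18s-rs5, annotated as related to 18S ribosomal RNA, 0% of values were at 0 or 100. It had 37.8%, 27.7%, 31.9% and 30.6% in NASH, against 26.9%, 18.5%, 31.9% and 44.4% in ND libraries, and the groups overlapped. A window 3 kb away, at 39844000, also had 0% of such values and a level of 30.6%. Ribosomal RNA genes exist in many copies, so these values may pool reads of many loci and are uncertain. Next were a window on chromosome 3, a window on chromosome 12 and windows in Cmss1 and Zc3h7a, with 0.417% to 6.81% of values at 0 or 100. Art3, Mcts2, Gnas, Zfp978 and Pcdhga8 followed, with 10.9% to 14.7%. These windows were picked after their values were seen.

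Most windows of the set stood alone, and 917 of 1834 lay outside any gene. The windows formed 1703 runs of adjacent windows, of which 1596 were single windows. The longest run, 8 windows at chr10:27818000-27825999, had no gene within 1000 bases, and 96.8% of its values were at 0 or 100. It averaged 44.5% in NASH and 40.5% in ND libraries, with window differences from -15.8 to 16.2 points. A run of 7 windows at chr3:6301000-6307999 was of the same kind, with 96.3% of values at 0 or 100 and averages of 45.1% in NASH and 48.0% in ND. The runs of 4 were in Gnas and in Ahnak2, a gene of a giant scaffold protein (chr12:112776000-112779999), with 91.2% of values at 0 or 100 in Ahnak2 and 28.3% in Gnas. The 9 runs of 3 windows were at Apc2, Fam83h, Pcdha1, Pcdhga12, Gnas, S100a7l2, a pair at Flg, the filaggrin gene, and a place on chromosome 15 without a gene.

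The surroundings differed between these kinds of window. Around imprinted windows the median level was 57.5% at 1 kb to the left and 56.1% at 1 kb to the right, 76.0% and 75.2% at 2 kb, and 85.5% and 80.3% at 5 kb. Zeros made up a median of 13.4% of values in the imprinted windows and 1.56% at 5 kb to the left. Around the 903 windows with 90% or more of values at 0 or 100, zeros made up a median of 37.5% of values at 5 kb to the left and 23.9% at 5 kb to the right. At 6 kb they made up 12.7% and 8.93%, and at 7 kb 0.781% and 0.893%, where the median level was 79.7% on both sides. These flanks varied between windows, and at 5 kb to the left the quartiles of the level were 18.4% and 79.6%. Around protocadherin windows the median level stayed at 45.4% to 68.6% over the whole 10 kb on each side.

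**Figure D5:**
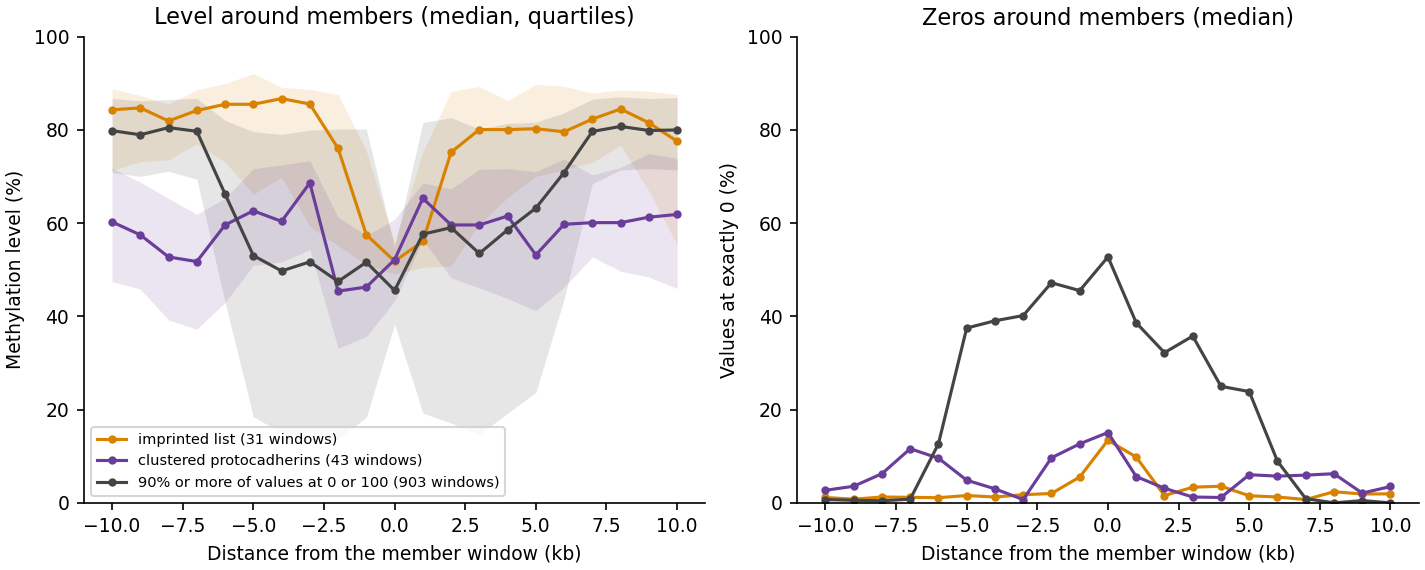
Median methylation level with quartile bands (percent, left) and median share of values at exactly 0 (percent, right) in 1 kb windows against distance from a window of the set (kb, x axis), over all 8 libraries. The median around imprinted windows is above 75% at 2 kb, while around windows with 90% or more of values at 0 or 100 the median share of zeros is 8.93% or more out to 6 kb and under 1% at 7 kb.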

How the data were processed

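The authors deposited percent methylation per cytosine of a CpG, each strand on its own row, for 8 liver libraries. The submitters' processing notes name FastQC and mm10, while the aligner or caller is not given in the sources used here. No read counts are given. Values were read for 30729668 positions on 15 chromosomes (1 to 4, 5 in part, 10 to 19). A further 326824 positions on 85 contigs and 1 incomplete line were left out, and the other chromosomes, X and Y among them, are not analysed here. Table positions run 1 base above the RefSeq position of a C (290317 of 290317 CpGs in promoters, where this was checked), and windows use table positions.

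A window's value is the unweighted mean of its levels in a library. The 1609820 windows with 6 or more positions were fitted with limma 3.58.1 (R 4.3.3, mean-dependent prior variance, NASH minus ND), with Benjamini-Hochberg adjustment over all of them and a threshold of 0.05. With no counts, the count model the design allowed for was not used. The fit was tested on simulated data. Windows were given to RefSeq genes within 1000 bases. The windows named are the 5 with the smallest p in each direction, all of the imprinted list, the 3 with the smallest p of each other list, the longest runs and those at the limits; 1 window so named is not reported here. The members and lists were chosen with earlier results of these data known. The ND columns were taken as the libraries titled WT. Alternatives were a replicate block, leaving out each library, leaving out doubtful or all zeros, logit levels, at least 40 positions, a single prior variance and other limits of the rule. Python 3.11.15, numpy 2.4.6 and pandas 2.3.3 were used.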

Additional observations from a re-analysis of the deposited data

Results flagged for a closer look

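In 9 of 112 groups of 4 libraries, over the 56 windows named by rule, a single library stood far from the others of its diet. Chance flags about 1 in 20 groups. In NASH libraries the standout was low at Peg13 (49.0%, the others at 64.2% to 66.0%), Impact at chr18:12974000-12974999 (35.9%, the others at 66.3% to 67.9%), Slc38a4 at chr15:97054000-97054999 (35.9%, the others at 47.5% to 49.5%) and Mcts2 at chr2:152686000-152686999 (61.6%, the others at 71.6% to 73.2%). It was also low at Sox9 (36.9%, the others at 49.4% to 50.6%). It was high at Sfmbt2 (70.8%, the others at 49.9% to 51.9%) and Grid1 (34.6%, the others at 16.4% to 19.3%). In ND libraries it was high at Smc1b (69.9%, the others at 45.0% to 47.3%) and Myorg (69.3%, the others at 65.8% to 66.1%). The libraries concerned were NASH replicates 1 to 4 and ND replicates 3 and 4, and no cause was tested.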

How the results depend on the processing

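No window of the set passed the adjusted threshold in limma under any setting run. Over all windows 6 passed, with 8 to 28 when a library was left out, 0 with the replicate block, 308 with every zero left out, 2 among windows with at least 40 positions and 0 with a single prior variance. Same-numbered libraries did not deviate together (correlations from -0.0053 to 0.02), so the numbers do not pair them. With the replicate block 242 windows of the set were at an unadjusted p under 0.05, against 228 without it, and 203 to 231 when a library was left out. With 100 or more positions 91 of 727 windows were. Protocadherin windows higher at an unadjusted p under 0.05 numbered 16, with 10 under the replicate block, 9 to 15 when a library was left out and 7 with every zero left out. Of the 56 named windows 36 kept their sign in all settings, and the smallest adjusted p was 0.0540. The sign changed at 4 of the 56 with doubtful zeros left out and at 10 with every zero left out. With every zero left out the differences at Sfmbt2, Gnas (chr2:174298000-174298999), Phactr2 and Slc38a4 (chr15:97054000-97054999) were -0.58, -1.21, 5.74 and -2.09 points; the cause was not tested. Depth is unknown, and without counts no value has a counting error.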
